A study of Mus musculus with 7 samples.

Results

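Zfpm1, Mbp, Elfn1 and Gse1 are 4 long genes of the mouse that held more peaks of replication initiation in cells overexpressing CDC6 than in untreated cells. They were chosen on that measure: the scaled number of peaks in the gene body was higher in both CDC6 libraries than in both WT libraries. They are 4 of 21631 protein-coding genes on autosomes and X, of which 4941 were at least 50 kb long and 1573 of these were tested, with a mean of at least 5 scaled peaks over the 6 libraries. All 4 passed that filter, Zfpm1 and Mbp only through the CDC6 libraries, since their APH and WT means lay below 5. Their place among the tested genes therefore rests in part on the values that chose them. The difference between CDC6 and WT is therefore given below as a description, without a test. In GRCm38.p6 (mm10), Zfpm1 spans 56.0 kb on chromosome 8 (122281856 to 122337862), Gse1 spans 352.9 kb on chromosome 8 (120228501 to 120581383), Elfn1 spans 67.1 kb on chromosome 5 (139907591 to 139974725) and Mbp spans 110.5 kb on chromosome 18 (82475091 to 82585637). Their distances below are counted from the end of the gene with the lower coordinate.

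Short nascent strands, the first pieces of DNA made at an origin, were sequenced from mouse embryonic stem cells (mESCs). The 2 CDC6 libraries came from TetO-CDC6 mESCs given 1 µg/ml doxycycline for 30 h to switch on a CDC6 transgene, and the 2 APH libraries came from the same TetO-CDC6 mESCs given 0.5 µM aphidicolin, a DNA polymerase inhibitor, for 2.5 h. Of the untreated WT libraries, WT 2 came from TetO-CDC6 mESCs without doxycycline and WT 1 from other mESCs, labelled only as WT in genotype, so the CDC6 and APH libraries share their line with WT 2 alone. DNA libraries carry no measure of CDC6, so its induction was not checked, and no cells given doxycycline without the transgene were analysed here. The deposited MACS peaks numbered 72384 in CDC6 1, 82071 in CDC6 2, 74540 in APH 1, 71435 in APH 2, 94747 in WT 1 and 81056 in WT 2. Read numbers are unknown, so the number of peaks limits the precision. Each count in a gene was scaled by the mean total of the 6 libraries over the library's own total, and a peak was placed by its midpoint.

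CDC6 helps the origin recognition complex to load the MCM helicase onto DNA before S phase, which licenses sites as possible origins. More sites are licensed than are used, and under replication stress some of the spare sites fire. Origins mapped through short nascent strands lie preferentially at promoters, CpG islands and sequences that can fold into G-quadruplexes. The 4 genes have no common function: Zfpm1 encodes FOG1, a zinc finger cofactor of GATA factors, Mbp encodes myelin basic protein, Elfn1 encodes a synaptic protein that binds metabotropic glutamate receptors, and Gse1 encodes a protein found with the LSD1 histone demethylase and CoREST.

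Promoter windows of 3 of the genes are shown, and each lies under a peak present in every library. Mbp was left out by name and not for lack of a peak, since its lower end also had a peak in every library. RefSeq promoter windows of GRCm38.p6 (mm10), 300 bases from 250 before to 50 after a start site, were searched for a G-quadruplex pattern of 4 runs of at least 3 G separated by 1 to 7 bases, or the same in C for the other strand. Capitals mark this pattern. All windows shown are on the + strand. Windows with the pattern made up 18.6% of 32851 promoters, and the median window held 7 CpG. The Zfpm1 window held 1 match and 37 CpG, more CpG than 94.4% of all windows, at chr8:122281891-122282190. The Elfn1 window held no match and 7 CpG, at chr5:139907616-139907915. Of the Gse1 starts, an internal one held 2 matches and 23 CpG, at chr8:120535607-120535906, and the next one held no match and 37 CpG, at chr8:120537159-120537458. They are called first and second only among the printed windows. A further internal Gse1 start, at a lower coordinate (chr8:120488616-120488915), held no match and 17 CpG and is not printed.
Zfpm1: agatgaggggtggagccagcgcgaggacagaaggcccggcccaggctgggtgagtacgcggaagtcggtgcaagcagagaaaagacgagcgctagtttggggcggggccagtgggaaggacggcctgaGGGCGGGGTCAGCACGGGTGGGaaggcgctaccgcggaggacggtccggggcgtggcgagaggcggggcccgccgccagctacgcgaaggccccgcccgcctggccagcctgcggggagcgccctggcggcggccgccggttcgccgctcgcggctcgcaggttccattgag
Elfn1: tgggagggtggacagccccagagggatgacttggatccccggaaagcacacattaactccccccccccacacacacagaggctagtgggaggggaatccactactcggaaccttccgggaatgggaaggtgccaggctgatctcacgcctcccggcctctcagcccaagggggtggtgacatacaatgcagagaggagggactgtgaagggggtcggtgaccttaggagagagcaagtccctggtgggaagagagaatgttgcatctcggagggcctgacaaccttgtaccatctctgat
Gse1, first internal start: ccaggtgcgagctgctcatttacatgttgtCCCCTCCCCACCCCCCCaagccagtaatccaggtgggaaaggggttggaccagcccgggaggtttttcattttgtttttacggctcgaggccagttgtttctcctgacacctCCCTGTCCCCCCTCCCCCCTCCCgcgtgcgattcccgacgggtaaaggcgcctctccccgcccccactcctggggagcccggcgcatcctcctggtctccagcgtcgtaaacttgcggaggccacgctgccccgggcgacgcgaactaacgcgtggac
Gse1, second internal start: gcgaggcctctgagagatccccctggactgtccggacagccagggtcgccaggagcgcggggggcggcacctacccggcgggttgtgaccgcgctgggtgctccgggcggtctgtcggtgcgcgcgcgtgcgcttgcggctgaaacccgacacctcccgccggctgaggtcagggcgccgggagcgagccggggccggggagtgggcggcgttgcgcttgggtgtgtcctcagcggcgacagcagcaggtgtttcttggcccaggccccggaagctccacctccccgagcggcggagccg

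Each of these windows had a MACS peak in all 6 libraries, as did the window of a further Gse1 start. They are thus sites present with and without CDC6 overexpression. At the Zfpm1 window the authors' fold over the control, the value given with each peak, was 5.39 in CDC6 1 and 5.09 in CDC6 2, 8.31 in APH 1 and 8.12 in APH 2, and 4.06 in WT 1 and 6.40 in WT 2. At the Elfn1 window it was 5.17 and 4.99 in CDC6, 4.96 and 5.59 in APH, and 4.66 and 3.04 in WT. At the shared peak of both printed Gse1 windows it was 5.89 and 4.90 in CDC6, 4.28 and 4.87 in APH, and 5.00 and 3.47 in WT. A fold describes a peak within its own library, so these values were not tested between libraries. Of the condition lists of origins, 1 per condition, those of CDC6 and APH met the Zfpm1 and Elfn1 windows, and that of WT did not. The first Gse1 window was met by the CDC6 list alone, and the second by all 3. Window edges decided part of this. The CDC6 origin at the first Gse1 window overlapped APH and WT origins that began past the window end, at 120535949 and 120536408. Likewise, the CDC6 origin at the Elfn1 window overlapped a WT origin that began past the window end, at 139908472. The CDC6 origin at the Zfpm1 window overlapped no WT origin.

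After scaling, the numbers of peaks ordered the conditions in the same way in the 4 genes, with CDC6 highest, APH between and WT lowest. Zfpm1 had 8 peaks in CDC6 1 and 8 in CDC6 2, 4 in APH 1 and 4 in APH 2, and 3 in WT 1 and 3 in WT 2. After scaling, this gave 8.77 and 7.74 in CDC6, 4.26 and 4.44 in APH, and 2.51 and 2.94 in WT. No group of Zfpm1 overlapped another. The means were 8.25 ± 0.73 in CDC6, 4.35 ± 0.13 in APH and 2.73 ± 0.30 in WT (SD, n = 2 each). On the scale of log2(scaled number + 1), which understates changes of low numbers, CDC6 minus WT was 1.31 in Zfpm1.

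Mbp had 8 peaks in each CDC6 library, 4 and 5 in the APH libraries, and 4 and 3 in the WT libraries. Unscaled, APH 1 and WT 1 were thus equal. The scaled numbers were 8.77 and 7.74 in CDC6, 4.26 and 5.56 in APH, and 3.35 and 2.94 in WT, without overlap. The means were 8.25 ± 0.73 in CDC6, 4.91 ± 0.92 in APH and 3.14 ± 0.29 in WT (SD, n = 2 each), and CDC6 minus WT was 1.16 on the log2 scale. Elfn1 differed in that its APH values came closer to CDC6 than to WT. It had 8 and 9 peaks in CDC6, 7 and 6 in APH, and 5 and 4 in WT. Scaled, these were 8.77 and 8.70 in CDC6, 7.45 and 6.67 in APH, and 4.19 and 3.92 in WT, with means of 8.74 ± 0.05 in CDC6, 7.06 ± 0.56 in APH and 4.05 ± 0.19 in WT (SD, n = 2 each). The log2 difference of CDC6 minus WT was 0.95 in Elfn1.

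Gse1, the longest of the 4, had 48 and 45 peaks in CDC6, 31 and 30 in APH, and 33 and 22 in WT. Its unscaled WT 1 number thus lay above both APH numbers. Scaled numbers were 52.6 and 43.5 in CDC6, 33.0 and 33.3 in APH, and 27.6 and 21.5 in WT, and the groups no longer overlapped. The means were 48.1 ± 6.4 in CDC6, 33.2 ± 0.23 in APH and 24.6 ± 4.3 in WT (SD, n = 2 each), and CDC6 minus WT was 0.94 on the log2 scale. Per 100 kb of body, the scaled number in CDC6 averaged 14.7 ± 1.3 in Zfpm1, 7.47 ± 0.66 in Mbp, 13.0 ± 0.07 in Elfn1 and 13.6 ± 1.8 in Gse1. In WT it averaged 4.87 ± 0.54 in Zfpm1, 2.84 ± 0.26 in Mbp, 6.04 ± 0.29 in Elfn1 and 6.97 ± 1.2 in Gse1. Mbp therefore had the lowest density of the 4 in both conditions.

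**Figure D1:**
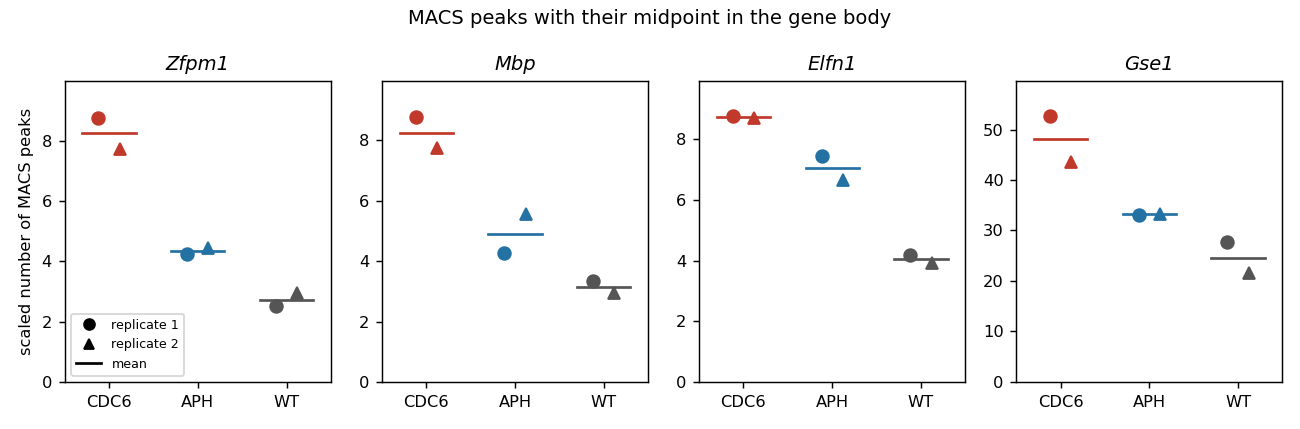
Scaled number of MACS peaks with their midpoint in the gene body (vertical axis, from 0, with a separate scale for each gene) in the CDC6, APH and WT libraries of Zfpm1, Mbp, Elfn1 and Gse1. Points are libraries, shaped by replicate, and bars are means of 2 libraries. In each gene the CDC6 libraries lie above the APH libraries and these above the WT libraries, with the highest values in Gse1 at 52.6 and 43.5.

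Among the 1573 long genes tested, 295 had both CDC6 values above both WT values, which is a background of 18.8%. All 4 genes are in that set because the choice placed them there. The distance on the log2 scale between the lower CDC6 value and the higher WT value was 1.15 in Zfpm1, 1.01 in Mbp, 0.90 in Elfn1 and 0.64 in Gse1, which ranked 1, 2, 4 and 10 among the 295. Another 6 genes had a larger distance than Gse1, and 50 had a larger difference of means. At the edge of the rule, chosen after their values were seen, stood Ephb2 just inside, with 20.8 and 19.3 scaled peaks in CDC6 and 19.3 and 5.88 in WT, and Ptprr just outside, with 8.77 and 9.67 in CDC6 and 7.54 and 8.81 in WT. The median of CDC6 minus WT over all tested genes was 0.12. The 4 genes ranked 12 (Zfpm1), 24 (Mbp), 49 (Elfn1) and 54 (Gse1) from the top. In the limma fit over all 1573 genes, the share of genes higher in CDC6 than in WT at an adjusted p below 0.05 was 0%, with no gene called and 70 genes at an unadjusted p below 0.05. That count changed when either WT library was left out. The 2 WT libraries came from different mESCs, so the spread used by the fit includes any difference between those cells.

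The rule of CDC6 above WT did not use the APH libraries, but the filter on the mean over the 6 libraries did. High APH values thus helped a gene into the tested set. The rule also used the WT libraries that APH is set against, and low WT values favour a gene in both comparisons. APH minus WT is therefore not independent of the choice. All 4 genes had both scaled APH numbers above both WT numbers, against a background of 12.8% (201 of 1573 genes). APH minus WT was 0.52 ± 0.38 in Zfpm1, 0.50 ± 0.35 in Mbp, 0.67 ± 0.28 in Elfn1 and 0.43 ± 0.29 in Gse1 (log2, ± SE), where the median of all tested genes was -0.00088. None of the 4 passed limma's test, with a Benjamini-Hochberg adjusted p of 0.980 each. The fit called 0% of the 1573 genes in this contrast as higher, and 56 had an unadjusted p below 0.05. It called 102 genes in either direction without WT 1 and 276 without WT 2, but none of the 4.

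The CDC6 values were part of the choice as high values, which favours these genes in CDC6 minus APH as well. All 4 had both CDC6 numbers above both APH numbers, against a background of 36.7% (577 of 1573 genes). CDC6 minus APH was 0.79 ± 0.38 in Zfpm1, 0.65 ± 0.35 in Mbp, 0.27 ± 0.28 in Elfn1 and 0.52 ± 0.29 in Gse1 (log2, ± SE). The limma adjusted p was 0.831 in Zfpm1, Mbp and Gse1 and 0.864 in Elfn1. Genes called higher were 0% in this contrast too, and 85 had an unadjusted p below 0.05. Leaving out WT 2 left CDC6 minus APH of Gse1 at 0.52 and lowered its SE from 0.29 to 0.16. The WT libraries enter this contrast only through the shared estimate of spread. CDC6 minus WT and CDC6 minus APH share the CDC6 libraries, and CDC6 minus WT and APH minus WT share the WT libraries.

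Number and width of the peaks gave different pictures in the genes of chromosome 8. Peaks covered 57.5% and 45.0% of the Zfpm1 body in the CDC6 libraries, 14.8% and 17.9% in the APH libraries, and 83.7% in WT 1 but 9.92% in WT 2. In Gse1 they covered 41.4% and 47.0% in CDC6, 19.9% and 27.4% in APH, and 71.1% in WT 1 but 11.6% in WT 2. WT 1 therefore had wide peaks in both genes, and its covered share exceeded that of each CDC6 library, while WT 2 had the smallest share of the 6. The widest WT 1 peak at Zfpm1 was 40.5 kb long and ran from 22.5 kb before the gene to 18.1 kb inside it. Its midpoint lay outside the body, so it is not in the count of 3, although it holds the start of the gene. Another WT 1 peak in Zfpm1, 21.0 kb long, met 5 separate CDC6 1 peaks and 4 separate CDC6 2 peaks.

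In Gse1, 15 of the 33 WT 1 peaks were at least 5 kb wide, and the widest was 30.4 kb. The corresponding counts were 10 of 48 in CDC6 1, 12 of 46 in CDC6 2, 4 of 31 in APH 1, 8 of 31 in APH 2 and 3 of 22 in WT 2, over all peaks that reached the body. Of the WT 1 peaks in Gse1, 12 met at least 2 separate CDC6 1 peaks and 11 at least 2 separate CDC6 2 peaks. None of the 22 WT 2 peaks did so. A region that CDC6 showed as several peaks was thus often a single peak in WT 1.

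**Figure D2:**
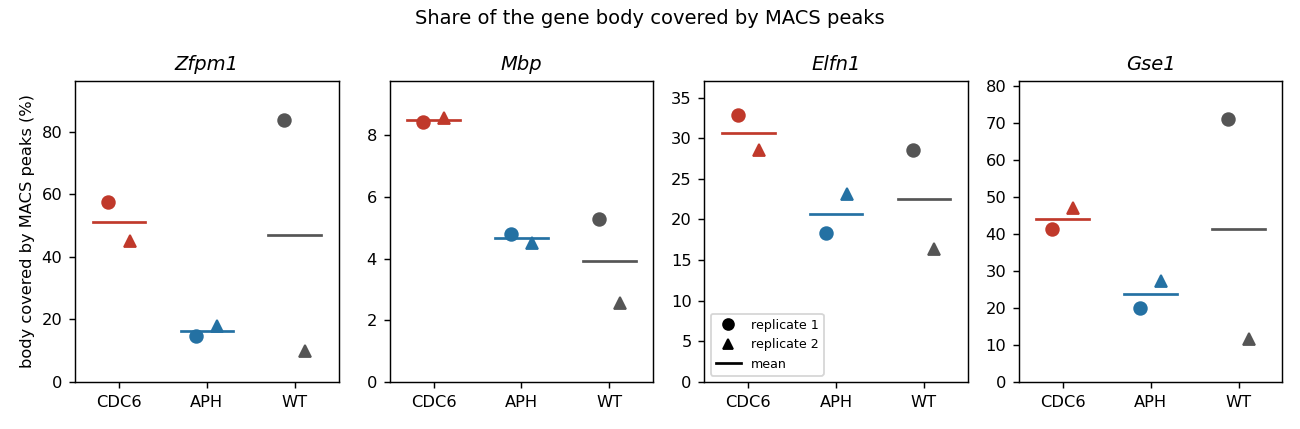
Share of the gene body covered by MACS peaks (vertical axis, percent from 0, a separate scale for each gene) in the CDC6, APH and WT libraries. Points are libraries, shaped by replicate, and bars are means of 2 libraries. In Zfpm1 and Gse1 the 2 WT libraries lie on either side of both CDC6 libraries, at 83.7% and 9.92% and at 71.1% and 11.6%.

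Mbp and Elfn1 did not show this pattern to the same degree. Peaks covered 8.41% and 8.57% of the Mbp body in CDC6, 4.79% and 4.51% in APH, and 5.28% and 2.57% in WT, and no WT 1 peak there was wider than 1.87 kb. Both CDC6 values lay above all others. In Elfn1 the covered shares were 32.9% and 28.5% in CDC6, 18.3% and 23.1% in APH, and 28.6% and 16.4% in WT, so that CDC6 2 and WT 1 were nearly equal.

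Covered bases were also scaled, to each library's total of covered bases. Both CDC6 libraries then lay above both WT libraries in Mbp and Elfn1 but not in Zfpm1 or Gse1, which is 2 of the 4 genes against a background of 15.8% (249 of 1573 genes). On the scale of log2(scaled covered kb + 1), CDC6 minus WT 2 was 2.42 in Zfpm1, 1.67 in Mbp, 1.09 in Elfn1 and 2.16 in Gse1. CDC6 minus WT 1 was -0.28 in Zfpm1, 0.98 in Mbp, 0.50 in Elfn1 and -0.26 in Gse1. The direction in the pair of chromosome 8 genes thus depended on which WT library was used. By number of peaks the choice of the genes fixed the direction against either WT library. There, CDC6 minus WT 1 was 1.40 in Zfpm1, 1.09 in Mbp, 0.91 in Elfn1 and 0.77 in Gse1, and CDC6 minus WT 2 was 1.23 in Zfpm1, 1.23 in Mbp, 0.99 in Elfn1 and 1.12 in Gse1. These values share the libraries of the choice and were not tested.

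WT 1 stood apart on chromosome 8 as a whole. That chromosome held 8.26% of the WT 1 peaks and 10.6% of its covered bases, against 4.82% to 5.90% of the covered bases in the other 5 libraries. Peaks at least 5 kb wide made up 6.98% of WT 1 peaks on chromosome 8 and 2.79% on the other chromosomes. Wide peaks as such were not particular to WT 1: they made up 10.7% of APH 1 peaks on chromosome 8 and 11.5% elsewhere, and 5.36% and 6.17% of those of APH 2, with no excess on chromosome 8. The 88 tested genes of chromosome 8 had a median covered share of 16.4% in WT 1, against 3.81% to 5.61% in the other libraries, and 10.2% of them had CDC6 above WT in every pair of libraries, against 19.3% of the 1485 genes elsewhere. WT 1 is also the library from other mESCs, so line and library cannot be told apart, and their part in the WT 1 widths at Zfpm1 and Gse1 was not tested. The number of copies of chromosome 8 in each line was not measured here, and its part in these values was not tested either.

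**Figure D3:**
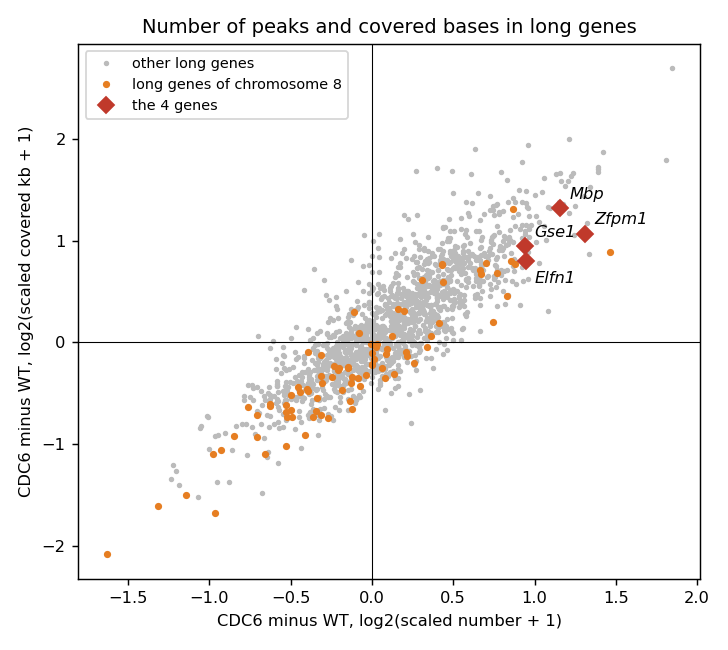
CDC6 minus WT for the number of peaks (horizontal axis, log2 of the scaled number plus 1) against CDC6 minus WT for covered bases (vertical axis, log2 of the scaled covered kb plus 1) in the 1573 tested long genes. Grey dots are genes of other chromosomes, orange dots the genes of chromosome 8 and red diamonds the 4 chosen genes. By number Zfpm1 lies farthest right of the 4 at 1.31, and by covered bases Mbp lies highest of the 4 at 1.33.

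Positions along the genes showed where the CDC6 peaks lay. In Mbp, 7 of the 8 CDC6 1 peaks overlapped a CDC6 2 peak by at least 1 bp. Of these 7, 4 met a WT 1 peak, 3 met a WT 2 peak and 2 met neither. The first of these 2 sites spanned 67.5 to 68.9 kb, with folds of 2.30 in CDC6 1 and 2.62 in CDC6 2. The second spanned 109.4 to 110.3 kb, near the upper end of the gene, with folds of 2.06 and 2.60. No APH peak met either site. The site at the lower end of Mbp had a peak in every library, with folds of 3.80 and 4.48 in CDC6, 3.49 and 3.91 in APH, and 2.66 and 2.47 in WT.

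In Elfn1, 7 of 8 CDC6 1 peaks were shared with CDC6 2, of which 6 met a WT 1 peak, 4 a WT 2 peak and 1 neither. That site lay at 57.1 to 58.0 kb, had no APH peak and had low folds of 1.96 and 2.21. Peaks in all 6 libraries lay at the start of Elfn1, at 21.0 to 25.3 kb and at 61.9 to 71.2 kb. The last of these reached past the gene end, and the WT 1 peak in it had its midpoint outside the body, so it does not count among the 5 of WT 1. In Zfpm1, 7 of 8 CDC6 1 peaks were shared with CDC6 2. All 7 met a WT 1 peak, 3 met a WT 2 peak, and 0 met neither. By overlap of whole peaks, no place in Zfpm1 thus had a peak in both CDC6 libraries and none in WT 1.

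In Gse1, 46 of 48 CDC6 1 peaks were shared with CDC6 2, and of these 43 met a WT 1 peak, 18 met a WT 2 peak and 3 met neither. From the side of CDC6 2, 42 of 45 were shared, of which 40 met WT 1, 17 met WT 2 and 2 met neither. Merged over all libraries, the Gse1 peaks formed 34 sites, of which 28 had peaks of both CDC6 libraries, 13 had peaks of all 6, 2 had both CDC6 libraries alone and 4 had WT 1 alone. These classes depend on peak width, since a wide peak joins its neighbours into 1 site. With each peak reduced to 400 bp around its midpoint, Gse1 had 129 sites, of which 21 had both CDC6 libraries, 1 had all 6 and 10 had both CDC6 libraries and no WT library. Zfpm1 then had 2 sites with both CDC6 libraries and no WT library, against 0 by overlap of whole peaks, Elfn1 had 2 against 1, and Mbp had 2 by either measure. By overlap of whole peaks, the Gse1 sites with CDC6 alone lay at 83.5 to 86.6 kb and 116.0 to 116.9 kb. Over all tested genes, 72.2% of the 10459 CDC6 1 peaks shared with CDC6 2 met a WT 1 peak, 64.2% met a WT 2 peak and 14.0% met neither. In Gse1, 93.5% met a WT 1 peak, 39.1% met a WT 2 peak and 6.52% met neither. Within the CDC6 1 list, the 3 Gse1 peaks without a WT peak had a median fold of 2.13, against 2.67 for those with one. Over all tested genes the median folds were 2.32 without and 2.70 with a WT peak.

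**Figure D4:**
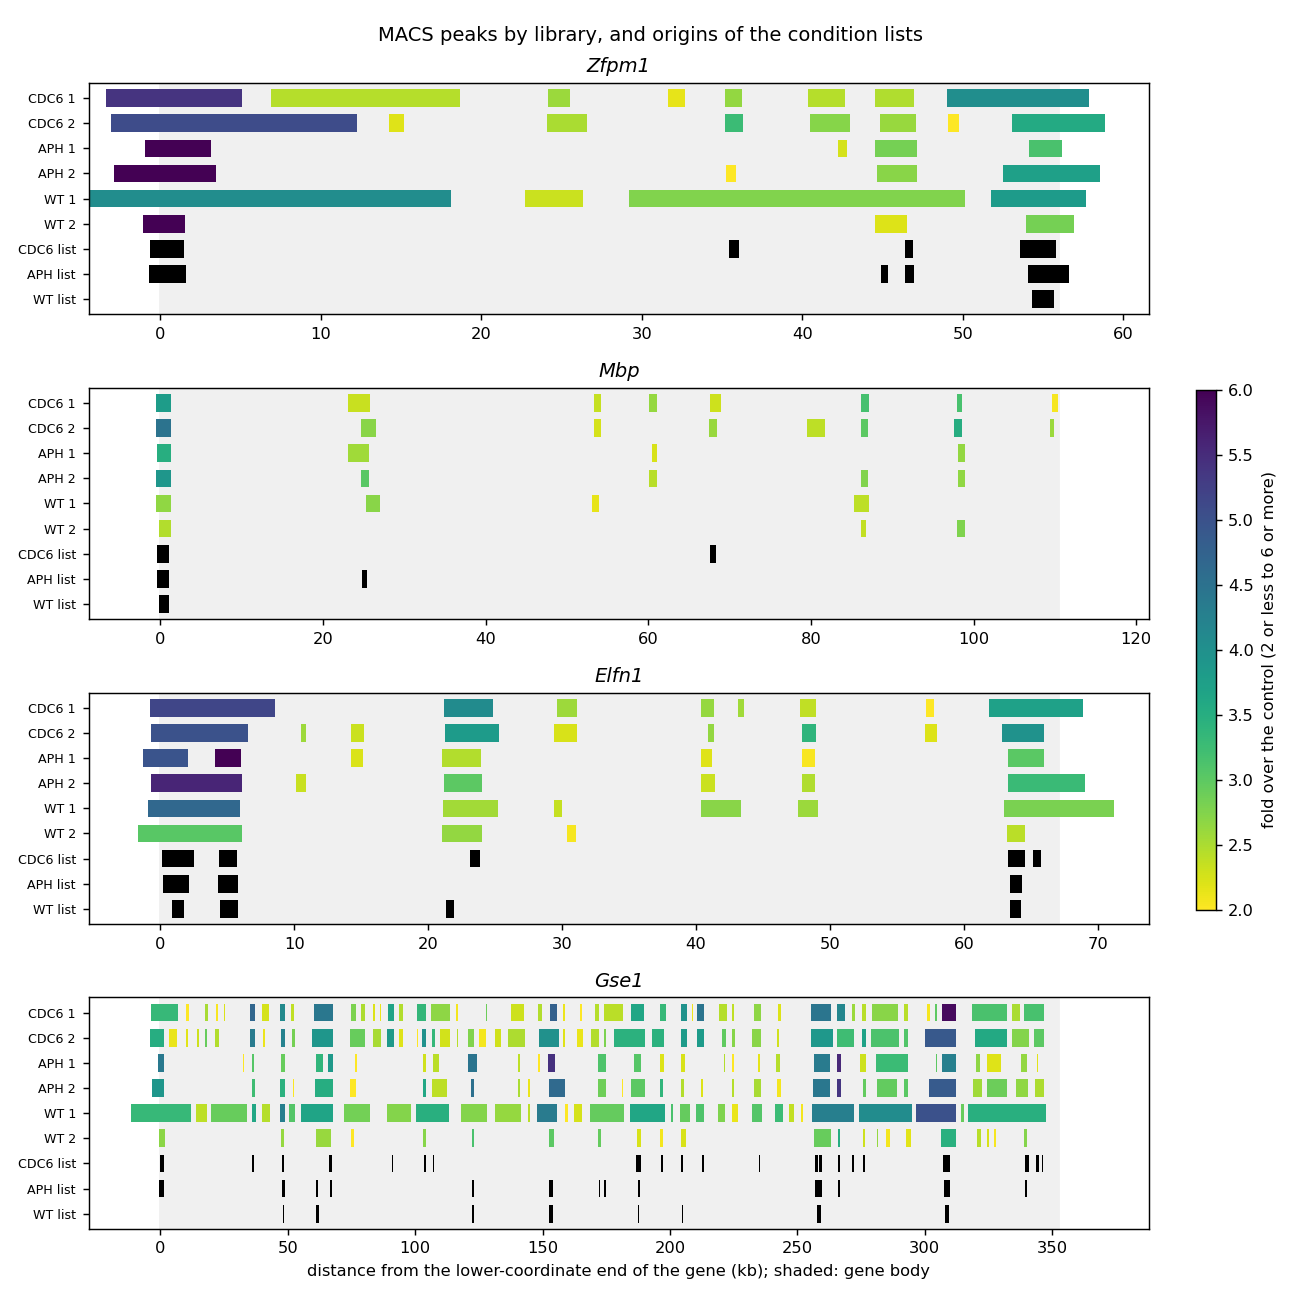
MACS peaks of the 6 libraries, coloured by the authors' fold over the control (2 or less to 6 or more), and origins of the 3 condition lists (black) along Zfpm1, Mbp, Elfn1 and Gse1. The horizontal axis is the distance in kb from the lower-coordinate end of each gene, and the gene body is shaded. WT 1 has a peak of 40.5 kb at Zfpm1, drawn from the left edge of the panel, and long blocks of up to 30.4 kb in Gse1, where CDC6 has several separate peaks.

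The additional Gse1 peaks lay mostly in the part of the gene with lower coordinates. When the body was split into 3 segments of 117.6 kb, the first held 19 and 19 peaks in CDC6, 9 and 7 in APH, and 11 and 5 in WT. The second held 16 and 16 in CDC6, 11 and 12 in APH, and 14 and 6 in WT. The last held 13 and 10 in CDC6, 11 and 11 in APH, and 8 and 11 in WT, so that the groups overlapped there. These are unscaled numbers. In Zfpm1, Mbp and Elfn1 a segment held 0 to 4 peaks per library, too few to place a difference.

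Windows of the gene's own length on either side of the body gave smaller differences in number. Below Gse1 the scaled numbers were 29.6 and 30.9 in CDC6, 18.1 and 24.4 in APH, and 31.0 and 12.7 in WT. Above it they were 29.6 and 25.1 in CDC6, 19.2 and 25.6 in APH, and 41.9 and 11.8 in WT. The WT libraries thus lay on both sides of CDC6 in these flanks, while in the body the choice of the gene placed them below it. The body values chose the genes and the flank values did not. Smaller differences in the flanks are therefore favoured by the choice and are no finding about the body. CDC6 minus WT on the log2 scale was 0.44 below and -0.27 above Zfpm1, -0.52 below and 0.59 above Mbp, 0.15 below and 0.16 above Elfn1, and 0.58 below and 0.27 above Gse1. Both CDC6 values exceeded both WT values in 1 of the 4 windows below a gene, that of Zfpm1, and in 2 of the 4 above, those of Mbp and Elfn1. Over the tested genes this held in 16.5% of windows below and 15.8% of windows above. The APH libraries had no peak midpoint in either Mbp flank. The lower flank held 2 and 1 CDC6 peaks and 4 and 2 WT peaks, and the upper one 4 and 5 CDC6 peaks and 3 and 3 WT peaks. APH peaks still covered 4.15% and 4.04% of the upper flank, against 5.94% and 4.90% for WT, since their midpoints lay outside it.

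**Figure D5:**
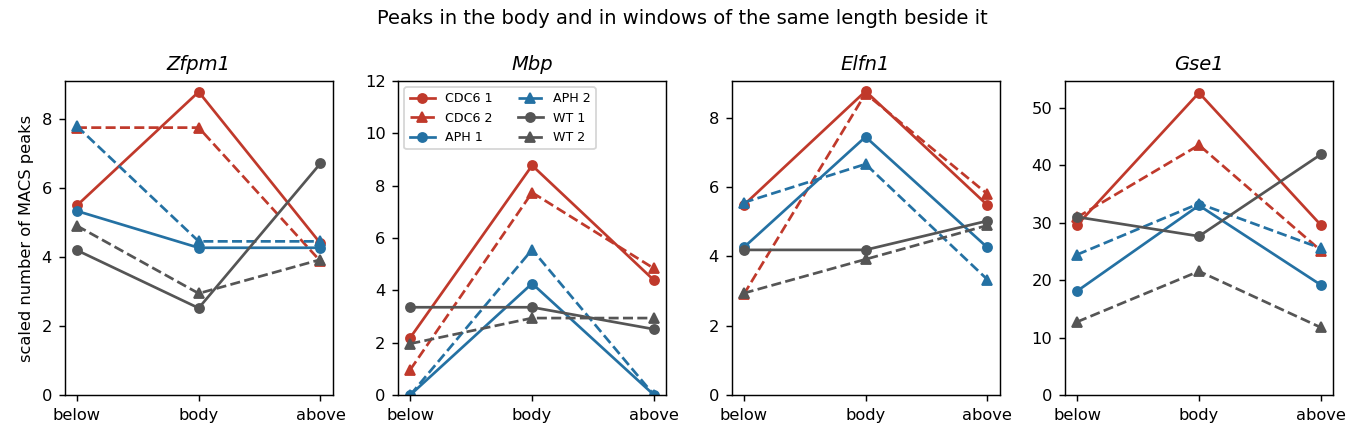
Scaled number of MACS peaks (vertical axis, from 0, a separate scale for each gene) in the body of each gene and in windows of the same length below and above it. Lines join the 3 windows of a library, with CDC6 in red, APH in blue and WT in grey. In Gse1 the WT 1 line is at 31.0 below, 27.6 in the body and 41.9 above, while CDC6 1 is at 29.6, 52.6 and 29.6. The order of CDC6 above WT in the body was fixed by the choice of the genes.

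Close neighbours gave their own values. Mad1l1, which encodes a spindle checkpoint protein and lies 34.0 kb above Elfn1, had scaled numbers of 17.5 and 19.3 in CDC6, 6.39 and 8.89 in APH, and 20.9 and 7.83 in WT, so CDC6 and WT overlapped. Zfp469, 9.21 kb below Zfpm1, had 19.7 and 19.3 in CDC6, 16.0 and 18.9 in APH, and 22.6 and 8.81 in WT, and overlapped as well. Zfp236, 7.96 kb above Mbp, had 3 and 4 unscaled peaks in CDC6, 0 in each APH library, and 2 in each WT library. Gins2, which overlaps Gse1 and encodes a subunit of the GINS complex of the replicative helicase, had 1 and 2 peaks in CDC6 and 1 in each APH and WT library. Trhr2 above Zfpm1, Galr1 below Mbp, Psmg3 below Elfn1 and Cibar2 below Gse1 had 0 to 3 peaks per library. No peaks were counted separately in overlapping noncoding genes, such as Gm39269 in Zfpm1 and Mir7687 in Gse1. Gm27021 above Gse1 had 6 and 5 peaks in CDC6, 3 and 5 in APH, and 9 and 2 in WT.

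The condition lists, with 1 list per condition and so no replicate error, held more CDC6 than WT origins in each of the 4 genes. Their names are as deposited. The WT and APH names are in doubt, since a second deposited list per library holds the same rows under another condition's label. Zfpm1 held 4 origins of the CDC6 list, 4 of the APH list and 1 of the WT list. Mbp held 2 of the CDC6 list, 2 of the APH list and 1 of the WT list. Elfn1 held 5 of the CDC6 list, 3 of the APH list and 4 of the WT list, and Gse1 held 21 of the CDC6 list, 13 of the APH list and 9 of the WT list. The CDC6 list is longer as a whole, with 31384 origins against 20178, and over the tested genes it held more rows than the WT list in 64.5%. Over these genes the totals stood at 6000 origins in CDC6 and 3876 in WT, a ratio of 1.55. Relative to list length, Elfn1 had 4.42 scaled origins in CDC6 and 5.50 in WT, and thus fewer in CDC6.

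Origins of the CDC6 list that met no WT origin were seldom without a WT peak. In Gse1 there were 15 such origins, of which 15 met a WT 1 peak and 7 a WT 2 peak. In Zfpm1 there were 3, of which 3 met a WT 1 peak and 2 a WT 2 peak, and in Elfn1 2, of which 2 and 1 did. The exception was Mbp, where the origin at 68.0 kb met no peak of either WT library. That origin lies in the CDC6 site at 67.5 to 68.9 kb described above. In Gse1, 11 of the 21 origins of the CDC6 list met neither the WT nor the APH list. Peaks of WT 1 covered 83.7% of the Zfpm1 body and 71.1% of the Gse1 body. Their width thus favours an origin meeting a WT 1 peak in these genes. The share of such origins over all tested genes was not taken.

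Genes that act with the 4 were listed by role, whatever their peaks. Of 43 such genes 39 had a peak, 6 were tested and 0 passed limma's test in any contrast. Both CDC6 values exceeded both WT values in 2 of the 6, beside 18.8% of all tested genes, and the median CDC6 minus WT of the 6 was 0.26, beside 0.12 for all tested genes. Grm4, a metabotropic glutamate receptor gene, had 13.2 and 13.5 scaled peaks in CDC6, 8.52 and 8.89 in APH, and 10.9 and 2.94 in WT, with CDC6 minus WT at 1.07 ± 0.47 (log2, ± SE, limma adjusted p = 0.815). Grm8, of the same family, stood at 0.40 ± 0.31 (adjusted p = 0.831, limma) and Grm7 at 0.086 ± 0.34 (adjusted p = 0.971, limma). Zfpm2, the paralogue of Zfpm1, stood at -0.03 ± 0.46 (adjusted p = 0.993, limma), Gata4, a GATA factor, at 0.16 ± 0.33 (adjusted p = 0.933, limma) and Ctbp2, a corepressor, at 0.36 ± 0.37 (adjusted p = 0.889, limma). None of the 12 myelin and oligodendrocyte genes and none of the 11 LSD1 and CoREST genes had enough peaks to be tested.

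Across the 6 libraries, the genes most like each of the 4 in log2(scaled number + 1) were found by Pearson's r, as a description over 6 points that share 3 conditions. For Zfpm1 they were Ppargc1a (r = 0.978), Mbp (0.971) and Gnas (0.970). For Mbp they were Dclk2 (0.981), Nfix (0.975) and Gnas (0.972), and for Elfn1 they were Arhgef4 (0.965), Rasgrf1 (0.961) and Uck2 (0.956). For Gse1 they were 4930402H24Rik (0.994), Jakmip1 (0.994) and Gnb1l (0.984). The 4 genes correlated with each other at 0.907 to 0.971. The choice favours such values, since all 4 were chosen for both CDC6 values above both WT values. Nfix, another gene of chromosome 8, had 16.4 and 15.5 scaled peaks in CDC6, 11.7 and 14.4 in APH, and 10.1 and 8.81 in WT. Jakmip1 had 8.77 and 6.77 in CDC6, 5.32 and 5.56 in APH, and 4.19 and 2.94 in WT.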

How the data were processed

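Of 7 samples, 6 libraries of short nascent strands (CDC6, APH and WT, 2 each) were used here. The Input sample was not analysed. Per the submitters' processing notes, the tools were MACS2 2.0.10, BWA 0.7.10, Picard 1.107, SAMtools 0.1.19, bedtools 2.23.0 and FastQC, and the builds mm9, mm10 and GRCm38. The role and settings of each tool were not given in sources used here. In the files, the deposited MACS lists give each peak's score, its fold ratio over a control and its −log10 p-value and q-value, and end at a q-value of 0.1. The deposited condition lists and second lists per library carry scores of unstated meaning. Read depth is unknown.

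Gene positions (GRCm38.p6) were RefSeq's and carried no strand. Peak midpoints falling in a protein-coding gene 50 kb or longer were counted and scaled to the mean total. Genes averaging at least 5 scaled peaks entered a linear model of log2(number + 1), fitted by limma 3.58.1 under R 4.3.3 (lmFit, trended eBayes, Benjamini-Hochberg over 1573 genes). Other tables were made with Python 3.11.15. The fit was also run on simulated counts with Poisson spread alone. These lacked any further spread between libraries, so that run says nothing of the error in the real libraries. Members and lists were chosen with earlier results of these data known. Other genes named are, by rule, neighbours, related genes with a mean of at least 5 scaled peaks, and the 3 most alike by Pearson's r. Separate cultures of the CDC6 and of the APH libraries are not stated in the labels, so their spread may be technical. The 2 WT libraries came from different mESCs. The spread behind the p-values, shared by the 3 groups, thus includes any difference between those cells. Rows of the condition lists went against the labels of the second lists: every WT row was found in the second list labelled APH 1, every APH row in that labelled CDC6 1, and every CDC6 row in that labelled CDC6 2. Second lists were therefore used only in an alternative. Which set of labels is right was not tested over all origins. In the 4 genes, every origin met a peak in both libraries of the condition its list is named for. An APH origin at 122.6 kb in Gse1 met no CDC6 1 peak, but every WT origin also met peaks of both APH libraries. The WT and APH names of the condition lists thus remain in doubt as well. Other scaling, thresholds, filters, pseudocounts, windows, a replicate block and leaving out each library were also tried.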

Additional observations from a re-analysis of the deposited data

How the results depend on the processing

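CDC6 minus WT stayed positive in the 4 genes in every setting tried, with values of 0.23 to 1.48 in Zfpm1, 1.01 to 1.33 in Mbp, 0.42 to 1.02 in Elfn1 and 0.13 to 1.17 in Gse1; only Gse1 has a value at a mean of at least 10 peaks. The choice of the genes fixes this sign when a library is left out or a block added, and the other settings draw on the same libraries, so the sign is no sign of stability. Leaving out each library gave 1.23 to 1.40 in Zfpm1, 1.08 to 1.24 in Mbp, 0.91 to 0.99 in Elfn1 and 0.77 to 1.12 in Gse1. Zfpm1 stood at 1.17 without scaling, 1.48 scaled by chromosome, 1.09 with equal numbers of strongest peaks, 1.13 with a −log10 q-value of at least 2, 0.23 in the second lists, 1.16 by any overlap, 1.09 with 10 kb added on each side, 1.44 with a pseudocount of 0.5 and 1.07 by covered bases. Mbp stood at 1.01 without scaling, 1.05 at the stricter q-value, 1.02 in the second lists and 1.33 by covered bases. Elfn1 stood at 0.79 without scaling, 0.86 by chromosome, 0.89 at the stricter q-value, 0.42 in the second lists, 0.84 by any overlap, 0.71 with 10 kb added, 1.02 with the smaller pseudocount and 0.80 by covered bases. Gse1 stood at 1.17 by chromosome and 0.13 in the second lists. Taken as labelled, the second lists reversed CDC6 minus APH in Zfpm1 (-0.30) and Elfn1 (-0.21). Their labels went against the rows of the condition lists, so values from the second lists may not compare the named conditions. Covered bases, chosen after seeing the wide WT 1 peaks, reversed APH minus WT in Zfpm1 (-0.79), Elfn1 (-0.063) and Gse1 (-0.29). The causes were not tested.

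The genes past limma's threshold numbered 0 in each contrast, but 10 (CDC6 minus WT), 12 (APH minus WT) and 2 (CDC6 minus APH) without the filter on numbers. Leaving out each library gave 0 to 370, 0 to 276 and 0 to 118. Without WT 1 the counts were 370, 102 and 92, and without WT 2 they were 69, 276 and 118, with the lone WT library assumed to vary like the other groups. Genes with CDC6 above WT in every pair of libraries, 295 as reported, numbered 85 without scaling, 737 without the filter, 56 at a mean of at least 10 peaks and 295 to 783 when a library was left out (783 without WT 1, 614 without WT 2, 479 without CDC6 1 and 482 without CDC6 2), since fewer libraries make the rule easier to meet. For APH above WT, 201 as reported, they numbered 42 without scaling, 123 with equal numbers of strongest peaks, 715 without the filter, 54 at the higher mean and 201 to 732 when a library was left out (732 without WT 1, 499 without WT 2, 365 without APH 1 and 330 without APH 2). With the replicate number as a block, limma again called 0 genes in each contrast. Differences between replicates 1 and 2 correlated over the tested genes at -0.12 (CDC6 and APH), 0.19 (CDC6 and WT) and -0.29 (APH and WT). The signs differed, so the replicate numbers showed no common direction across the groups.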
